A study of Mus musculus with 16 samples.

Results

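The Notch pathway genes examined here were Notch1, Notch2, Notch3, Jag1, Jag2, Dll1, Lfng, Hes1, Hes5 and Numb, and their members on the chip were all probe sets whose platform annotation gives only that gene symbol. A probe set is a group of short oligonucleotides on the chip that together measure 1 transcript. The rule found 14 probe sets for 9 of the 10 genes, out of 12422 probe sets that were tested. Notch1, Notch2, Dll1, Hes5 and Numb have 2 probe sets each, which were kept apart, and no probe set was named Jag1, so Jag1 was not analysed here. RNA came from whole inner ears of newborn (P0, postnatal day 0) mice of strain 129SvEv, and the groups were wild-type mice and COUP-TFI-/- mice, which lack the orphan nuclear receptor COUP-TFI (gene Nr2f1) from the germline on and in all tissues. Affymetrix MG-U74Av2 chips, 8 in number, were hybridized in 2 sets at different times, here called A and B. Each set held 1 RNA pool per genotype, made from several tissue samples, on duplicate chips numbered 1 and 2. There were thus 2 pools per genotype, and duplicate chips show the spread of the array and not that between animals. Within a set, genotype cannot be told apart from the pool or from any difference in dissection. Between sets, pool, hybridization time and dissection cannot be told apart. In whole tissue, fewer cells of a type and less RNA per cell cannot be told apart either.

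Notch signalling passes between neighbouring cells. Ligands of the Jagged and Delta families on a cell bind Notch receptors on the next cell, the receptor is cut by ADAM proteases and by gamma-secretase, and its intracellular domain enters the nucleus, where it joins the DNA-binding protein RBPJ and switches on targets such as the Hes and Hey repressors. Fringe glycosyltransferases such as Lfng alter which ligands a receptor responds to, and the endocytic adaptor Numb restrains the receptor. In the inner ear the pathway is known for marking out the prosensory patches and, later, for the lateral inhibition by which a hair cell keeps its neighbours from becoming hair cells, so that they form supporting cells.

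Each chip was deposited with GCRMA values, which are on a log2 scale, and with dChip values, which are intensities on a linear scale. Differences are given in log2 units, as COUP-TFI-/- minus wild-type unless the sets are compared. The chips matched their labels, as the GCRMA genotype difference of Nr2f1 was -3.60 within set A and -3.14 within set B. Markers of the inner ear were present, among them Coch, Otog, Tecta and Gjb2, with GCRMA pool means between 7.80 and 10.3. Not every marker on the inner ear list was that high. The lowest was a Gjb6 probe set, with a GCRMA mean of 3.19 over the 8 chips. The GCRMA mean of the whole list was 7.65 to 8.16 per chip, beside chip medians of 7.20 to 7.23. Across probe sets, the GCRMA correlation was 0.996 to 0.997 between duplicate chips and 0.979 to 0.987 between chips of different sets.

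No Notch pathway gene differed between the genotypes at an adjusted p under 0.05. This was 0 of 14 probe sets in the limma fits of pool means with set as a block, for GCRMA and for dChip, where 13 of 12422 probe sets (0.105%) and 1 of 12421 (0.00805%) passed. At an unadjusted p under 0.05 there was 1 of the 14 in each normalization, the Numb probe set 161912_r_at, where 4.58% of all probe sets passed with GCRMA and 2.13% with dChip. The other 13 probe sets had GCRMA differences between -0.04 (Jag2) and 0.14 (Notch2 104188_at). Their 95% intervals lay between -0.26 and 0.35 log2 units, which are folds of 0.834 and 1.27. With dChip the differences of these 13 lay between -0.08 and 0.17 and their intervals between -0.42 and 0.55. These intervals draw mainly on the variance prior that limma estimates from all probe sets (14.3 prior degrees of freedom with GCRMA and 4.55 with dChip, against 1 from a gene's own pools), and the number of pools limits the precision. The median difference of the 14 was 0.02 with GCRMA, beside 0.00 for all probe sets, and the direction was the same in both sets for 8 of 14 (57.1%) with GCRMA, beside 45.6% of all probe sets, and for 6 of 14 (42.9%) with dChip, beside 43.7%. The COUP-TFI-/- chips were all above or all below the wild-type chips in 0 of 14 probe sets with GCRMA (2.26% of all) and in 1 of 14 with dChip (1.89% of all), which was again Numb 161912_r_at.

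**Figure D1:**
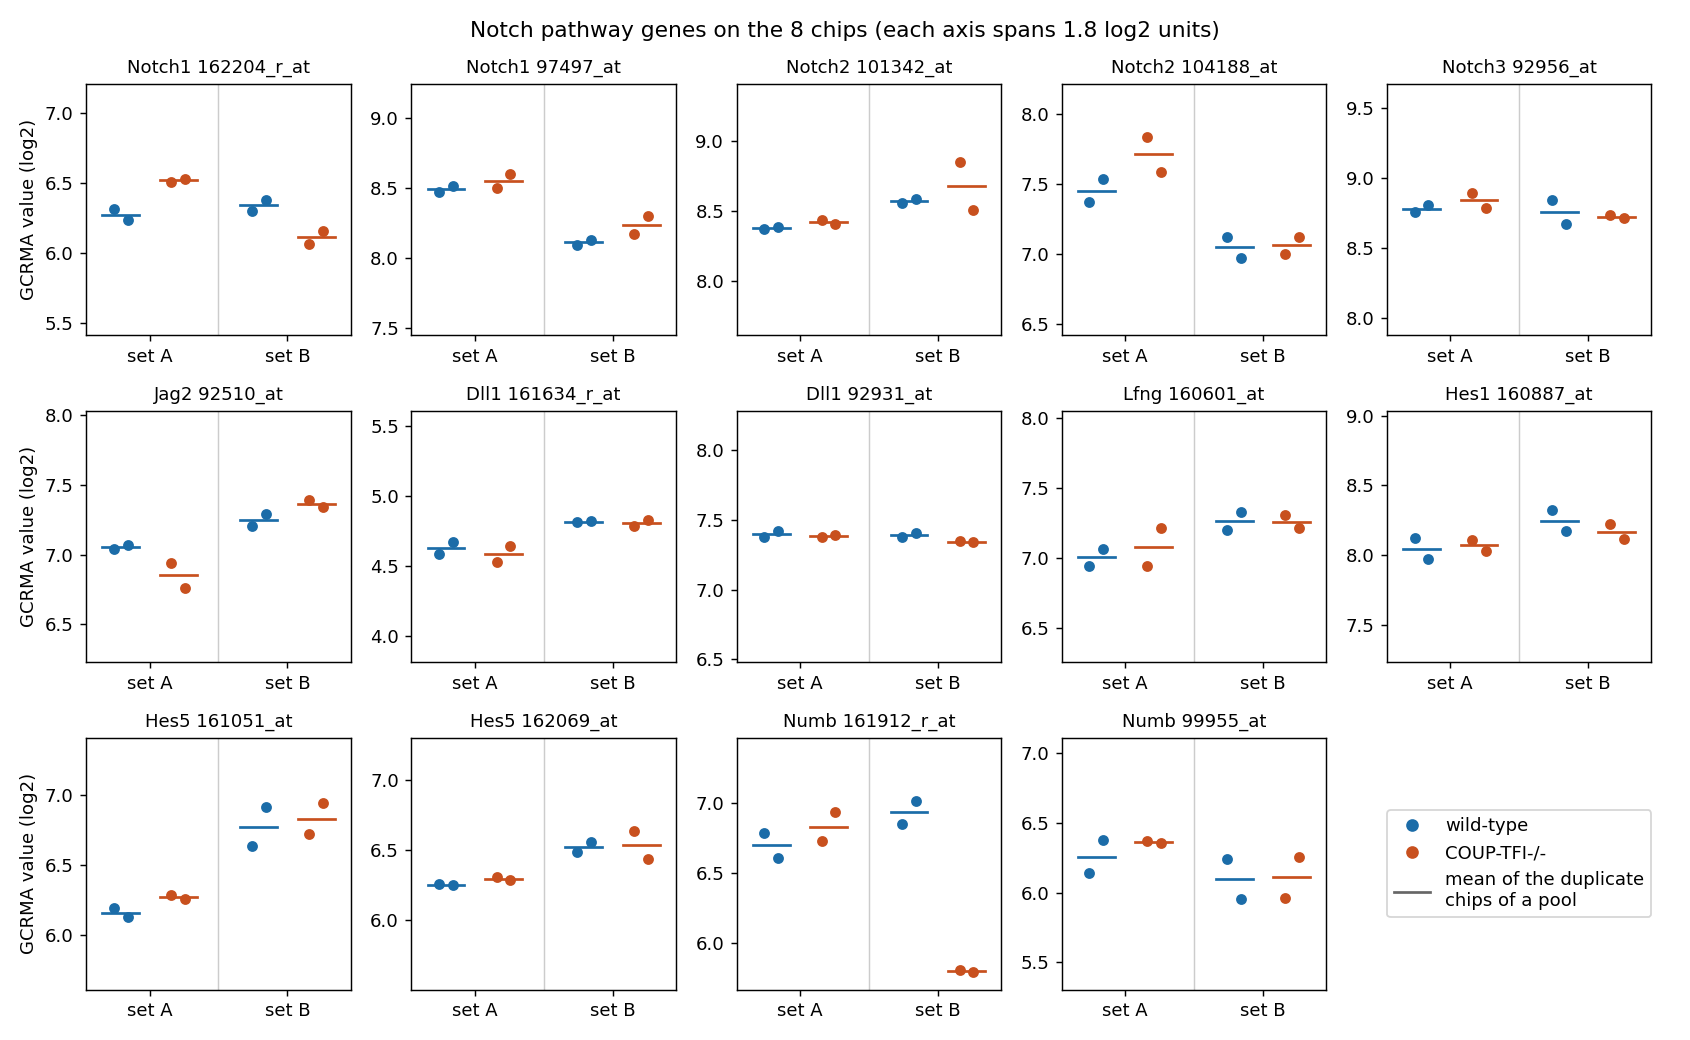
GCRMA values (log2, y axis) of the 14 probe sets on the 8 chips, by hybridization set (x axis) and genotype. Points are chips and lines are means of the duplicate chips of an RNA pool. Numb 161912_r_at in set B is the panel in which the genotypes are farthest apart, with wild-type chips at 6.85 and 7.02 and COUP-TFI-/- chips at 5.80 and 5.79.

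Numb, the adaptor that restrains Notch receptors, was measured by 2 probe sets with different results. For 161912_r_at, the set A chips had GCRMA values of 6.79 and 6.61 in wild-type and of 6.73 and 6.93 in COUP-TFI-/-. The set B chips had 6.85 and 7.02 in wild-type, and 5.80 and 5.79 in COUP-TFI-/-. The genotypes thus overlapped in set A, while in set B both COUP-TFI-/- chips lay below both wild-type chips and below every chip of set A. Set A thus gave a genotype difference of 0.13 and set B of -1.13, where the COUP-TFI-/- level was 0.455 times that of wild-type. The difference of these differences was 1.27 log2 units (SE 0.14) and passed the limma interaction test on the 8 chips (adjusted p = 0.00160). That p rests on the spread between duplicates, with a single pool behind each value compared. The mean difference over both sets was -0.50 (SE 0.19, 95% interval -0.90 to -0.10, n = 2 pools per genotype), and with limma on the pool means its p was 0.0174 and its adjusted p 0.857. Without the chip COUP-TFI-/- replicate B1 that adjusted p was 0.0476, and with the 8 chips taken as replicates it was 0.00446. It was between 0.223 and 1.00 in the other alternatives.

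With dChip the intensities of Numb 161912_r_at were 380 and 344 in wild-type and 327 and 333 in COUP-TFI-/- in set A. In set B they were 395 and 422 in wild-type and 258 and 282 in COUP-TFI-/-. Here every COUP-TFI-/- chip lay below every wild-type chip, and the lowest values were again those of the COUP-TFI-/- pool of set B. The dChip difference was -0.13 in set A, -0.60 in set B and -0.37 over both (limma adjusted p = 1.00), so the set A difference had the opposite sign to that of GCRMA. The interaction was 0.47 with dChip and did not pass (limma, adjusted p = 0.0908), nor did it pass with the methods' 2-way analysis of variance on the GCRMA values (adjusted p = 0.179).

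The second Numb probe set, 99955_at, did not show the set B difference. Its GCRMA values were 6.14, 6.37, 6.24 and 5.95 on wild-type chips A1, A2, B1 and B2 and 6.37, 6.36, 5.96 and 6.26 on the COUP-TFI-/- chips in the same order. The groups overlapped in set B, and the genotype difference was 0.11 within set A, 0.01 within set B and 0.06 over both (95% interval -0.14 to 0.26). Its interaction was 0.09 (SE 0.17, limma adjusted p = 0.835), and its dChip differences were 0.16 in set A and 0.08 in set B. Over the 8 chips, which share pools and sets, the r between the 2 Numb probe sets was 0.20 with GCRMA and -0.33 with dChip. The suffix _r_at marks an Affymetrix probe set for which the rules of probe selection were relaxed. The platform annotation used here named a source sequence for 99955_at. It named none for 161912_r_at, nor for Notch1 162204_r_at, another _r_at probe set. Which stretch of the Numb transcript each probe set covers was not analysed here.

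Striated muscle markers differed between the set B pools, the wild-type pool lying below both pools of set A and the COUP-TFI-/- pool above them. The summed dChip intensity of 32 probe sets of 22 muscle genes was 38861 and 40831 on the COUP-TFI-/- chips of set B and 24292 and 24314 on its wild-type chips. On the set A chips the sums ran from 34249.5 to 34697 for wild-type and from 32805 to 34066 for COUP-TFI-/-. Numb 161912_r_at was low in the COUP-TFI-/- pool of set B, where the muscle sum was highest. Its values were not low in the wild-type pool of set B, where that sum was lowest. Of the 32 muscle probe sets, 14 passed the GCRMA interaction test at an adjusted p under 0.05 (limma on the 8 chips), beside 0.958% of all probe sets. With dChip 12 passed, beside 0.459%. That test rests on the spread between duplicate chips. The ratio of the muscle sums, COUP-TFI-/- to wild-type, was 1.64 in set B and 0.970 in set A. The corresponding ratios of the other 8 marker lists (hair cells, supporting cells, inner ear, endothelium, vascular smooth muscle, neurons, glia and erythroid cells) were between 0.852 and 1.10 in both sets. The highest was that of hair cells in set B, whose mean GCRMA difference there had the opposite sign (-0.04). The part of muscle content in the Numb values was not tested.

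**Figure D2:**
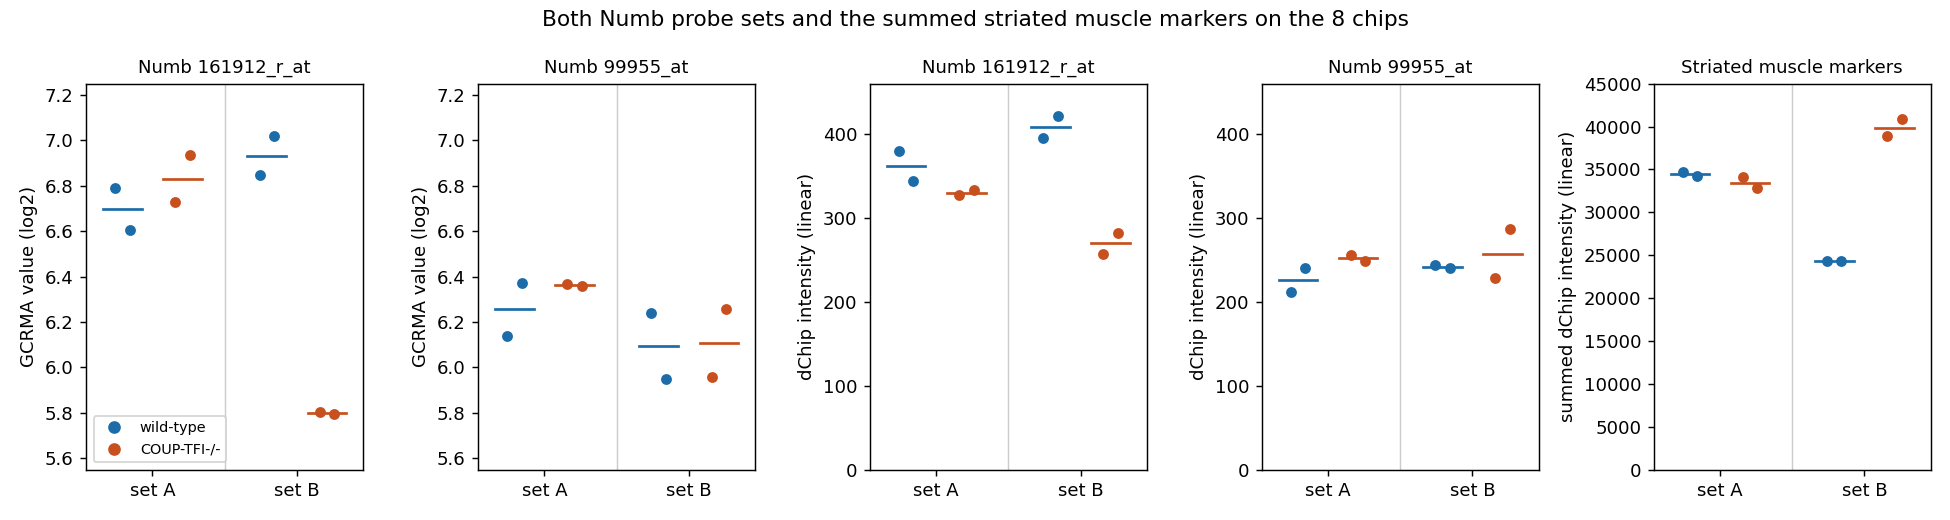
Both Numb probe sets on the 8 chips, with GCRMA (log2, left pair) and dChip (linear intensity, middle pair), and the summed dChip intensity of the striated muscle markers (right), by set (x axis) and genotype. Points are chips and lines pool means. In set B, the COUP-TFI-/- pool had the lowest Numb 161912_r_at values and the highest muscle sum (38861 and 40831), the wild-type pool had the lowest muscle sum (24292 and 24314), and Numb 99955_at overlapped between the genotypes in that set.

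The probe sets whose GCRMA pattern over the 8 chips was most like that of Numb 161912_r_at were those of Insm1 (r = 0.988), Sec11c (0.980), Rgs5 (0.979), Cbfa2t3 (0.979) and Pold1 161528_r_at (0.977). They were ranked by Pearson's r over n = 8 chips, and the r describes the choice itself. Insm1 encodes a zinc finger factor of neuronal and endocrine precursors, Sec11c a subunit of the signal peptidase, Rgs5 a regulator of G protein signalling in pericytes, Cbfa2t3 a corepressor and Pold1 the catalytic subunit of DNA polymerase delta. Their genotype differences in set B were -0.35, -0.31, -0.43, -0.23 and -0.74 in that order, and in set A they lay between 0.00 and 0.09. The change of the difference between sets was largest for Pold1 161528_r_at, at 0.74. These differences come from the same values that chose the 5 probe sets, so no test is read from them. With dChip the r to Numb 161912_r_at was 0.839 for Pold1, 0.806 for Rgs5 and 0.686 for Cbfa2t3, but 0.295 for Insm1 and 0.0338 for Sec11c.

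Of the receptors, Notch1 162204_r_at had the largest change of the GCRMA genotype difference between sets and Notch2 104188_at that with dChip, and neither passed the adjusted p. For Notch1 162204_r_at, GCRMA values on the set A chips were 6.31 and 6.24 for wild-type and 6.51 and 6.53 for COUP-TFI-/-. On the set B chips they were 6.30 and 6.38 for wild-type and 6.07 and 6.16 for COUP-TFI-/-. The COUP-TFI-/- chips lay above both wild-type chips in set A and below both in set B, with differences of 0.24 and -0.23. The interaction of 0.47 (SE 0.11) had an unadjusted limma p of 0.00142 and an adjusted p of 0.0835, and with dChip it was 0.33 (adjusted p = 0.164). The other Notch1 probe set, 97497_at, had GCRMA values of 8.47, 8.51, 8.10 and 8.13 on wild-type chips A1 to B2 and of 8.50, 8.60, 8.17 and 8.30 on the COUP-TFI-/- chips. Here the values followed the set, and the genotype differences were 0.06 in set A and 0.12 in set B (0.09 over both, 95% interval -0.11 to 0.29).

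Notch2 101342_at had GCRMA values of 8.37, 8.38, 8.56 and 8.59 on the wild-type chips and 8.43, 8.41, 8.85 and 8.51 on the COUP-TFI-/- chips. Notch2 104188_at had 7.37, 7.53, 7.12 and 6.97 on the wild-type chips and 7.84, 7.59, 7.00 and 7.12 on the COUP-TFI-/- chips. In set A both COUP-TFI-/- chips of 104188_at lay above the wild-type chips (difference 0.26), and in set B they overlapped (0.01). The dChip intensities of this probe set were 260 and 238 in wild-type and 377 and 310 in COUP-TFI-/- in set A, and 322 and 315 in wild-type and 274 and 239 in COUP-TFI-/- in set B. The genotypes did not overlap in either set and lay in opposite order, with differences of 0.46 and -0.32 and an interaction of 0.78 (SE 0.16, limma adjusted p = 0.0643). With GCRMA that interaction was 0.25 (adjusted p = 0.438). Notch3, the receptor known from vascular smooth muscle, ranged over 8.67 to 8.84 on wild-type chips and over 8.71 to 8.90 on COUP-TFI-/- chips (GCRMA), which overlapped, with a difference of 0.01 (95% interval -0.19 to 0.22).

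Of the ligands, Jag2, which hair cells display, had GCRMA values of 7.04 and 7.07 in wild-type and 6.94 and 6.76 in COUP-TFI-/- in set A. In set B the values were 7.20 and 7.29 in wild-type and 7.39 and 7.34 in COUP-TFI-/-. COUP-TFI-/- was thus lower in set A (-0.20) and higher in set B (0.12), and the mean difference was -0.04 (95% interval -0.26 to 0.18). With dChip the set B intensities were 276 and 259 in wild-type and 353 and 348 in COUP-TFI-/-, a difference of 0.39, against 386 and 389 in wild-type and 400 and 354 in COUP-TFI-/- in set A (-0.04). The dChip interaction was -0.43 (SE 0.12, limma adjusted p = 0.0997) and that of GCRMA was -0.32 (adjusted p = 0.231).

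Dll1, the Delta-like ligand of nascent hair cells, had nearly flat values on 92931_at, which ran from 7.37 to 7.42 in wild-type and from 7.34 to 7.39 in COUP-TFI-/- (GCRMA). Its genotype difference was -0.03 (95% interval -0.24 to 0.17), and its duplicate SD of 0.02 was the lowest of the 14 probe sets. Dll1 161634_r_at ranged over 4.58 to 4.82 on wild-type chips and over 4.53 to 4.83 on COUP-TFI-/- chips, a difference of -0.03. Lfng, the fringe glycosyltransferase, ranged over 6.95 to 7.33 on wild-type chips and over 6.94 to 7.30 on COUP-TFI-/- chips (GCRMA). The genotypes overlapped, and the difference of Lfng was 0.04 (95% interval -0.17 to 0.24). Its dChip differences were 0.14 in set A and -0.30 in set B, with an interaction adjusted p of 0.206 (limma).

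The targets Hes1 and Hes5 are bHLH repressors that hold back the hair cell programme and serve as readouts of receptor activity. Hes1 had GCRMA values of 8.12, 7.97, 8.32 and 8.17 on wild-type chips A1 to B2 and of 8.11, 8.03, 8.22 and 8.12 on the COUP-TFI-/- chips. The genotypes overlapped in both sets, and the difference was -0.03 (95% interval -0.23 to 0.18). Hes5 161051_at had 6.19, 6.13, 6.64 and 6.91 on the wild-type chips and 6.28, 6.26, 6.72 and 6.94 on the COUP-TFI-/- chips, where every set B chip lay above every set A chip. Such a lack of overlap between sets was common with GCRMA, in 7 of the 14 probe sets and in 4604 of all 12422. The genotype difference of Hes5 was 0.08 on this probe set (95% interval -0.12 to 0.29) and 0.03 on 162069_at (-0.18 to 0.23). With dChip the differences were -0.02 for Hes1, -0.00077 for Hes5 161051_at and -0.04 for Hes5 162069_at.

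**Figure D3:**
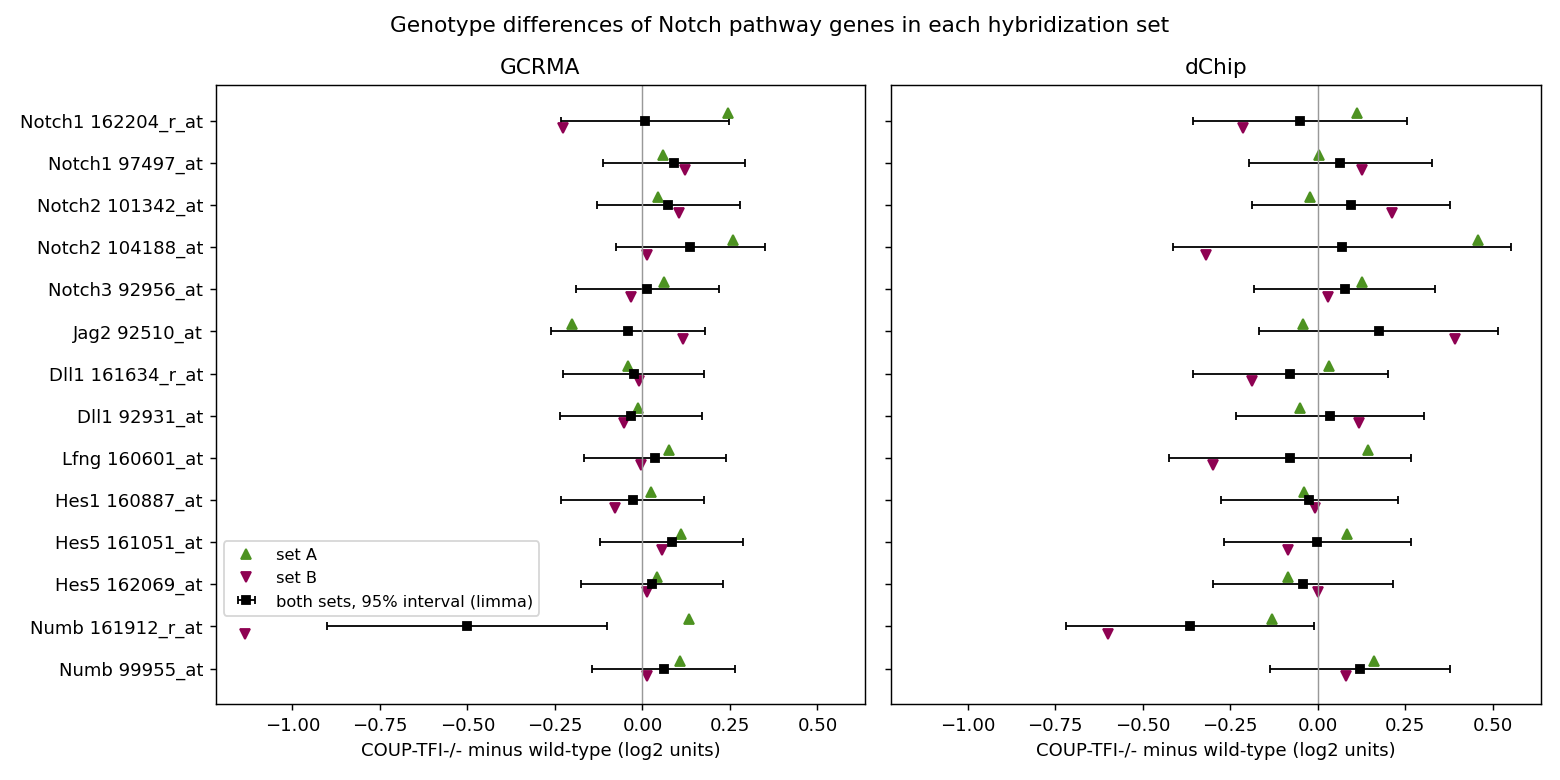
Genotype differences (COUP-TFI-/- minus wild-type, log2 units, x axis) of the 14 probe sets with GCRMA (left) and dChip (right). Squares are means over both sets with 95% intervals from limma, and triangles are the differences within set A and set B. Numb 161912_r_at had -1.13 in set B with GCRMA and -0.60 with dChip, and the intervals of the other 13 include 0 in both panels.

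The test of whether the genotype difference changed between sets passed an adjusted p under 0.05 for 1 of 14 probe sets with GCRMA, where 0.958% of all probe sets passed, and for 0 of 14 with dChip, where 0.459% passed (limma on the 8 chips). At an unadjusted p under 0.01 these were 2 of 14 with GCRMA (Numb 161912_r_at and Notch1 162204_r_at), beside 6.01% of all probe sets, and 3 of 14 with dChip (Notch2 104188_at, Numb 161912_r_at and Jag2), beside 8.37%. Numb 161912_r_at was in both.

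Differences between the sets were tested on the 8 chips, a fit of another form than that of the pool means used for the genotypes, so the counts of the 2 tests are not compared. With GCRMA, 10 of 14 probe sets differed between sets A and B at an adjusted p under 0.05 (limma on the 8 chips), beside 46.1% of all probe sets. Higher in set A were both Notch1 probe sets (0.17 for 162204_r_at and 0.35 for 97497_at), Notch2 104188_at (0.53) and Numb 161912_r_at (0.40). For 2 of these 4 the average came from the COUP-TFI-/- pools, as set A minus set B was -0.23 in wild-type and 1.03 in COUP-TFI-/- for Numb 161912_r_at, and -0.07 and 0.41 for Notch1 162204_r_at. Lower in set A were Hes5 161051_at (-0.59) and 162069_at (-0.26), Jag2 (-0.35), Notch2 101342_at (-0.23), Lfng (-0.22) and Dll1 161634_r_at (-0.21). The 2 probe sets of Notch2 thus went opposite ways. The median absolute set difference was 0.22 for the 14 and 0.16 for all probe sets, and with dChip it was 0.14 and 0.19, in the opposite order. Here, too, duplicates are the only measure of spread behind the p-values.

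With dChip 6 of 14 probe sets differed between the sets (limma, adjusted p under 0.05), beside 50.5% of all. Notch1 97497_at (0.40), Jag2 (0.32) and Notch3 (0.23) were higher in set A, and Hes5 161051_at (-0.49), Dll1 161634_r_at (-0.42) and Hes1 (-0.15) were lower. Passing in both normalizations with the same sign were Notch1 97497_at, Dll1 161634_r_at and Hes5 161051_at. The share of all probe sets that do so was not counted, so nothing about the pathway is read from these 3. Jag2 passed in both with opposite signs, at -0.35 with GCRMA (SE 0.06, adjusted p = 0.000662) and 0.32 with dChip (SE 0.06, adjusted p = 0.00278), so the direction of its set difference depends on the normalization. Over the 8 chips the r between the GCRMA and the log2 dChip values of Jag2 was -0.45, and that of Lfng was -0.05. Hes5 161051_at had 0.96, Notch1 97497_at 0.95, Hes1 0.90 and Numb 161912_r_at 0.89.

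**Figure D4:**
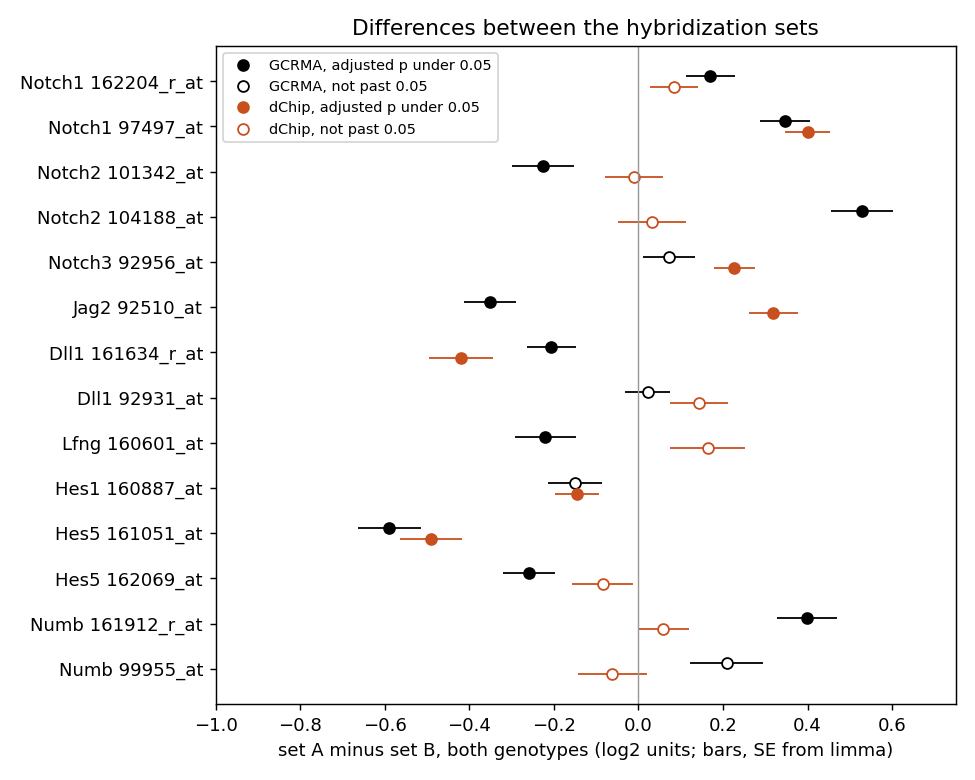
Set A minus set B over both genotypes (log2 units, x axis) for the 14 probe sets, with GCRMA in black and dChip in orange. Bars are SEs from limma on the 8 chips, and filled points passed an adjusted p under 0.05. Hes5 161051_at was lower in set A with both (-0.59 and -0.49), and Jag2 had opposite signs (-0.35 and 0.32).

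Marker lists of several tissues moved with the set as well. The summed dChip intensity of the inner ear list was 8819 to 9921 on the chips of set A and 6270 to 7567 on those of set B. The supporting cell and prosensory list had 5733 to 6628 in set A and 4228 to 4799 in set B, and the hair cell list 6433 to 7144 and 6141 to 6900, which overlap. With GCRMA the mean log2 values of the hair cell list did not overlap, at 7.51 to 7.56 in set A and 7.37 to 7.47 in set B. Lists of other tissues were also lower in set B with no overlap, with 10910 to 11430 against 8168 to 9710 for neurons, 7450 to 7864 against 6347 to 6739 for endothelium and 21053 to 21608 against 16892 to 17762 for erythroid cells. Between genotypes, the COUP-TFI-/- to wild-type ratio of the supporting cell list was 0.889 within set A and 0.901 within set B. Hes5 161051_at was thus higher in set B, where these 5 sums without overlap were lower, and Notch1 97497_at was higher in set A, where they were higher. The part of tissue composition in these set differences was not tested.

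Other genes of the pathway came from a list of 73, of which 46 genes had 56 probe sets. None passed an adjusted p under 0.05 between genotypes with GCRMA (beside 0.105% of all probe sets) or dChip (beside 0.00805%) in limma. At an unadjusted p under 0.05 there were 4 of 56 (beside 4.58% of all probe sets) with GCRMA and 0 of 56 (beside 2.13%) with dChip, and the median GCRMA difference was 0.01. Mfap5, a microfibril protein and atypical ligand, had the largest GCRMA difference on probe set 99518_at (0.28, SE 0.12, limma adjusted p = 0.977), with 0.01 in set A and 0.56 in set B. Its other probe set, 99517_at, had -0.04. Kat2b 104070_at, a histone acetyltransferase of the Notch transcription complex, followed with 0.25 (SE 0.11), from 0.07 within set A and 0.43 within set B. The remaining pair, named after their values were seen, were Rbpj, the DNA-binding partner of the receptor, with 0.23, and the atypical ligand Cntn1 with -0.21. With dChip the differences were 0.28 for Mfap5 99518_at, 0.07 for Kat2b 104070_at, 0.12 for Rbpj and 0.15 for Cntn1, so Cntn1 changed sign.

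By role, the transcription complex (7 probe sets of 5 genes) ran from -0.02 to 0.25 with GCRMA and from -0.09 to 0.16 with dChip. The proteases and secretase subunits that mature and cut the receptor (7 probe sets of 6 genes) ran from -0.15 to 0.20 with GCRMA, and the corepressors (10 of 9 genes) from -0.17 to 0.16. Inhibitors and turnover factors (15 of 11 genes) ran from -0.12 to 0.13, and the further Hes, Hey and Id targets (7 of 7 genes) from -0.03 to 0.06. In none of these groups did a probe set pass the adjusted p. For the interaction of genotype and set, 0 of the 56 passed with either normalization, beside 0.958% of all probe sets with GCRMA and 0.459% with dChip. Between the sets 16 were higher in set A and 16 in set B with GCRMA (beside 46.1% of all probe sets called). With dChip 16 were higher in set A and 12 in set B (beside 50.5%).

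Promoter sequence was read for the members because Lfng and the Hes genes are targets of the pathway and COUP-TFI is a DNA-binding receptor. RefSeq promoters (GRCm38.p6, 250 bases before to 50 after the start) matched 9 of the 10 genes, 12 promoters in all, and Hes1 had no entry. The letters TGGGAA, the core of the site bound by RBPJ, were searched on both strands. They were found in 2 of the 12, those of Lfng and Hes5, and in 25.6% of 32851 mouse promoters. AGGTCA, the half-site of nuclear receptors, was found in 1 of the 12, a promoter of Dll1, and in 16.3% of all. The authors left single half-sites out of their own search and looked for direct repeats over longer regions. This count is therefore not a measure of the sites they searched for. The matches are shown in capitals, in 30 bases around each and in the gene's direction, where TTCCCA is TGGGAA on the other strand. Lfng and Hes5 each had 2 matches in opposite orientation.
Lfng, chr5:140607194-140607223, plus strand: ccagctgggtggTTCCCAgccccttgtccg
Lfng, chr5:140607221-140607250, plus strand: ccgtatcccacgTGGGAAggagagatctcc
Hes5, chr4:154960685-154960714, plus strand: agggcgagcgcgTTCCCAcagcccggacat
Hes5, chr4:154960829-154960858, plus strand: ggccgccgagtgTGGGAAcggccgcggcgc
Dll1, chr17:15375915-15375944, minus strand: tctgaccagggcAGGTCAcgggagagcacc
The matches are descriptions of the letters in these windows. The genotype differences of the 3 genes with a match were the small ones given above, from -0.03 (Dll1) to 0.08 (Hes5 161051_at) with GCRMA.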

How the data were processed

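RNA pools of P0 inner ears were hybridized to 8 Affymetrix MG-U74Av2 chips. The authors deposited each chip with GCRMA values on a log2 scale and with dChip intensity values on a linear scale. The versions of the authors' software are not given in the sources used here, and raw probe intensities were not analysed here. The letter in a chip's label was read as the hybridization set and its number as the duplicate. All 16 value columns were used.

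The chip holds 12488 probe sets, from which 66 Affymetrix controls were removed. A single gene symbol was given for 10833 probe sets by the platform annotation, several for 396 and none for 1193. By gene identifier 10817 matched RefSeq. Before log2, dChip values below 1, 89 in number, were raised to 1. A missing dChip value removed 1 probe set from the dChip fits.

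Genotype differences were tested with limma 3.58.1 in R 4.3.3 on the means of duplicate chips, with set as a block. The methods pair the pools by set, and across probe sets the set differences of the wild-type and of the COUP-TFI-/- pools had r = 0.752 (GCRMA) and 0.688 (dChip). Interaction and set differences came from limma on the 8 chips, 2-sided, with Benjamini-Hochberg adjustment over all probe sets. Fits were tested on simulated data. Alternatives were dChip, no block, chips as replicates, the methods' 2-way analysis of variance, the RNA pool as a random block (statmod 1.5.0), quantile normalization, a filter on low values, a trended prior, a dChip floor of 16 and leaving out each chip. Figures were drawn with matplotlib 3.10.9 in Python 3.11.15.

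The members and gene lists were chosen with earlier results of these data known. Named were all probe sets of the members, the 2 largest differences among other pathway genes (as none had an unadjusted p under 0.01), the 5 probe sets most correlated with the Numb probe set of lowest interaction p, and Nr2f1. Of the member probe sets, 14 of 14 were tested, since no filter on low values was used.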

Additional observations from a re-analysis of the deposited data

Results flagged for a closer look

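For Numb 161912_r_at the GCRMA genotype difference in set A exceeded that in set B by 1.27 log2 units (adjusted p = 0.00160 from limma on the 8 chips), with differences of 0.13 and -1.13 from 1 pool per genotype and set.

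A single chip lay far from the other 3 of its genotype in 2 of 56 groups of 4 chips, both with dChip values. For independent chips chance gives about 5%. These chips are duplicates of 2 pools in 2 sets, and the 56 groups hold the same chips with GCRMA and with dChip. That share need not apply here. Jag2 in COUP-TFI-/- had 400 on chip A1 against 348 to 354 on the others, a gap of 0.870 of the range on the log2 scale. Numb 99955_at in wild-type had 212 on chip A1 against 240 to 244 on the others, a gap of 0.889 of the range.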

How the results depend on the processing

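The count of all probe sets past limma's adjusted p between genotypes, 13 with set as a block, was 1 with dChip, 0 with no block (38 at an unadjusted p under 0.05), 0 with a dChip floor of 16 (191 at an unadjusted p under 0.05), 1 with the methods' 2-way analysis of variance, 2 with quantile normalization, 21 with low values left out, 27 with the RNA pool as a random block and 159 with chips as replicates. It ran from 1 to 54 with a chip left out, at 22, 2 and 3 without wild-type replicates A1, A2 and B1, and at 1 and 54 without COUP-TFI-/- replicates A1 and B1. The member count stayed at 0 in these settings except 2. It was 1 (Numb 161912_r_at) with chips as replicates and without COUP-TFI-/- replicate B1, so with a chip left out it ran from 0 to 1.

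The interaction count of 119 became 57 with dChip and 5 with the 2-way analysis of variance, and the member count of 1 became 0 in both. With a chip left out it ran from 23 to 237 and the member count was 1 each time. Counts beyond 1.5 times apart came without wild-type replicates A1 (38), A2 (32) and B2 (23) and COUP-TFI-/- replicates A1 (37), A2 (29) and B2 (237). The 10 member probe sets that differed between sets became 6 with dChip, and 6 to 11 with a chip left out, with 6 without COUP-TFI-/- replicate A1. The causes were not tested.

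Genotype differences that changed sign with dChip, at either floor, were those of Notch1 162204_r_at (-0.050), Jag2 (0.17), Dll1 92931_at (0.034), Lfng (-0.079), Hes5 161051_at (-0.00077) and Hes5 162069_at (-0.043). Interactions that did were those of Dll1 161634_r_at (0.22), Dll1 92931_at (-0.17), Hes1 (-0.030) and Hes5 162069_at (-0.085, and -0.0043 with quantile normalization), and set differences those of Jag2 (0.32), Lfng (0.16) and Numb 99955_at (-0.061). With a chip left out, genotype differences ran across 0 for Dll1 161634_r_at (-0.054 to 0.0031), Hes1 (-0.065 to 0.011), Hes5 162069_at (-0.023 to 0.077), Jag2 (-0.087 to 0.0032), Lfng (-0.032 to 0.10), Notch1 162204_r_at (-0.014 to 0.031), Notch2 101342_at (-0.011 to 0.16), Notch3 (-0.029 to 0.058) and Numb 99955_at (-0.014 to 0.13). Interactions did so for Dll1 161634_r_at (-0.086 to 0.027), Hes5 161051_at (-0.085 to 0.19), Hes5 162069_at (-0.072 to 0.13), Lfng (-0.055 to 0.22), Notch1 97497_at (-0.13 to 0.0048), Notch2 101342_at (-0.23 to 0.11) and Numb 99955_at (-0.055 to 0.24). Signal over background was not given by the deposited values.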
